A study of Arabidopsis thaliana with 12 samples.

Results

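The salt response of dcp5-1 seedlings was taken as the change between 60 min and 0 min in medium with 150 mM NaCl. dcp5-1 is an Arabidopsis thaliana mutant of the decapping factor gene DCP5, which the study set beside the Col-0 accession under what its design calls hyperosmotic stress. The comparison rests on 6 of the 12 mRNA libraries of the study: dcp5-1 at 60 min, replicates 1 to 3, against dcp5-1 at 0 min, replicates 1 to 3. It covers the 19876 of 38088 loci whose level averaged at least 1 FPKM (fragments per kilobase of transcript and unit of mapped library size) over all 12 libraries. The other 6 libraries, Col-0 at 60 min and Col-0 at 0 min with 3 each, enter here only where the response of the mutant was tested against that of the wild type.

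All libraries came from whole seedlings, 5 days old, grown on 1x MS agar at 22 °C with 16 h of light and 8 h of dark after 3 days of cold imbibition at 4 °C. Every group, 0 min included, had first rested for 30 min in liquid 1x MS. No sample kept for 60 min without NaCl is labelled, so the effect of salt and that of 60 more min in liquid medium cannot be told apart. Nothing in the labels tells whether replicates were grown apart. The p-values therefore take in only how far the libraries of a group lie from each other, which can be technical spread. In bulk seedlings, fewer cells of a type and less RNA per cell cannot be told apart either.

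DCP5 is an LSM14-family protein that joins the mRNA decapping complex in cytoplasmic P-bodies, where mRNAs are held from translation or lose their cap before decay from the 5′ end. Salt withdraws water and loads cells with sodium. Plants answer by making abscisic acid (ABA): receptors bound to the hormone block clade A PP2C phosphatases, which frees SnRK2 kinases to activate ABF bZIP factors at ABRE promoter elements, while DREB factors act on DRE elements without the hormone. In Arabidopsis seedlings the response is known for dehydrins, compatible solutes, sodium transport and slowed growth.

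DCP5 (AT1G26110) lies on chromosome 1 from 9024341 to 9027955 in TAIR10.1. Its transcript had 20.7, 20.2 and 20.6 FPKM at 60 min, against 13.0, 13.0 and 13.2 FPKM at 0 min in dcp5-1. In Col-0 it had 78.8, 84.9 and 76.6 FPKM at 60 min, against 48.5, 51.7 and 52.1 FPKM at 0 min. Every dcp5-1 library lay below every Col-0 library, and within dcp5-1 the 60 min libraries lay above the 0 min ones without overlap. The rise in dcp5-1 was 0.61 on the log2(FPKM + 1) scale used throughout (SE 0.05, limma with Benjamini-Hochberg adjusted p = 3.45e-07). It did not differ detectably from the rise in Col-0 (difference -0.03, SE 0.07, limma adjusted p = 0.751). Quantile normalization alone took that difference past the threshold, at -0.44.

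Whole reads could be recovered from the low values: fitted library scales stood for 20.24 to 20.76 × 1e6 reads at 60 min and 17.71 to 18.69 × 1e6 reads at 0 min in dcp5-1. Over 10863 genes 99.3% to 99.5% of values under 10 reads at 60 min, and 99.2% to 99.4% at 0 min, came out within 0.1 read of a whole number. The median gene had 154 to 159.7 reads at 60 min and 127 to 131 at 0 min. Replicates of dcp5-1 correlated across genes at r = 0.963 to 0.974 at 60 min and 0.964 to 0.969 at 0 min, and libraries of different times at 0.896 to 0.914. The seedling label was checked against tissue markers. Light-harvesting and Rubisco genes stood among the most abundant transcripts in every dcp5-1 library, and markers of root, guard cells, vessels and shoot meristem were present. Of the markers looked for, 4 of 12 of root (COBL9, PLT1, PLT2 and NRT2:1), 2 of 5 of meristem (WUS and CLV3) and 5 of 10 of seed remnants (CRA1, CRU3, SESA3, SESA4 and EM1) averaged under 1 FPKM. Between times, when 35.1% of all loci tested were higher and 31.6% lower in dcp5-1, 5 of 8 green tissue markers and 5 of 8 root markers fell, and 1 and 2 rose. Guard cell markers had 3 of 9 higher and 0 lower, vascular markers 5 of 8 and 1, meristem markers 0 of 3 and 0, and seed remnant markers 1 of 5 and 1. With quantile normalization 2 green markers fell and 3 rose. The part of tissue composition in the results was not tested.

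Of the 19876 loci, 6967 (35.1%) were higher and 6284 (31.6%) lower at 60 min in dcp5-1 at an adjusted p below 0.05. The median change over all loci was 0.02 and the median standard error 0.09, so calls reach down to small changes. The 3 libraries of 60 min all lay above the 3 of 0 min for 38.4% of loci and all below them for 34.9%. By at least 1 log2 unit, 884 loci (4.45%) rose and 1302 (6.55%) fell. At 2 units the counts were 201 and 259, and at 3 units 49 and 67. The change went with transcript length. Its median was -0.28 in the 6240 nuclear coding genes with the shortest transcripts, 0.07 in the middle 6239 and 0.27 in the 6240 longest. Of these short, middle and long transcripts 14.7%, 38.2% and 56.2% rose, and 53.0%, 27.2% and 15.7% fell. Counts within a gene list are to be read against the 35.1% and 31.6% of all loci. Lists of short or long genes are therefore given also with the length trend removed wherever that turns their direction or moves a count of calls by over 1.5 times.

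Of nuclear loci with a gene symbol, a called change without overlap between times and at least 5 FPKM in the higher group, the 12 that rose most and the 12 that fell most are described one by one. Loci without a symbol could lie as far out: AT5G53710 rose by 4.36, and AT5G52020 and AT4G27654 changed by -5.45 and -5.35. RD26, a NAC transcription factor induced by dehydration, had 317, 310.4 and 329.5 FPKM at 60 min, against 5.79, 7.82 and 8.14 FPKM at 0 min (change 5.29, SE 0.12, limma adjusted p = 1.54e-11). NAC019, its close relative, had 95.9, 93.9 and 99.3 FPKM at 60 min, against 2.38, 2.54 and 2.17 FPKM at 0 min (change 4.86, SE 0.08, limma adjusted p = 1.53e-12). PUB19, a U-box ubiquitin ligase of drought signalling, had 89.7, 91.3 and 86.1 FPKM at 60 min, against 2.57, 2.1 and 2.27 FPKM at 0 min (change 4.77, SE 0.08, limma adjusted p = 1.5e-12). In all of these the lowest 60 min library was many times the highest 0 min library. RD29A, a target of both ABRE and DRE binding factors, had 274, 259 and 254 FPKM at 60 min, against 10.3, 10.6 and 9.66 FPKM at 0 min, a change of 4.56. NAP, a NAC factor of leaf senescence, had 59.0, 54.1 and 58.4 FPKM at 60 min, against 1.07, 1.63 and 2.03 FPKM at 0 min, a change of 4.52. HSFA6B, a heat shock factor that acts in ABA responses, had 25.7, 26.3 and 26.2 FPKM at 60 min, against 0.169, 0.286 and 0.248 FPKM at 0 min, a change of 4.46. HSFA6B thus stood below 1 FPKM in every library before salt.

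ABI1, a clade A PP2C phosphatase that restrains ABA signalling, had 244, 238 and 238 FPKM at 60 min, against 11.3, 11.4 and 10.8 FPKM at 0 min, a change of 4.31. NCED3, whose enzyme takes the committed step of ABA synthesis under drought, had 40.2, 39.8 and 41.5 FPKM at 60 min, against 1.53, 1.40 and 1.44 FPKM at 0 min, a change of 4.08. Both a source and a brake of the ABA signal thus rose, each without overlap between times. HB-12, an HD-Zip I factor of water deficit, had 291, 291 and 295 FPKM at 60 min, against 17.2, 16.6 and 17.0 FPKM at 0 min (4.03). DIP2, named for its interaction with a DNA-binding protein phosphatase, had 61.4, 65.5 and 63.2 FPKM at 60 min, against 2.81, 3.45 and 2.70 FPKM at 0 min (4.02). RAP2.6, an ERF-family factor of stress and ABA responses, had 128, 132 and 139.5 FPKM at 60 min, against 7.72, 6.91 and 7.81 FPKM at 0 min (3.99). The remaining one of the 12, the Rubisco small subunit gene RBCS1A, stands at 0 in every library of 0 min, 3 of dcp5-1 and 3 of Col-0. It has 15766, 15771 and 16311 FPKM in dcp5-1 at 60 min, and 10353, 11080 and 9548 FPKM in Col-0 at 60 min. Because of those zeros it gets no fold, and its relatives RBCS1B, RBCS2B and RBCS3B were abundant in dcp5-1 at both times, as RBCS2B shows with 3542, 3728 and 3408 FPKM at 60 min, against 6904, 7854 and 6663 FPKM at 0 min.

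**Figure D1:**
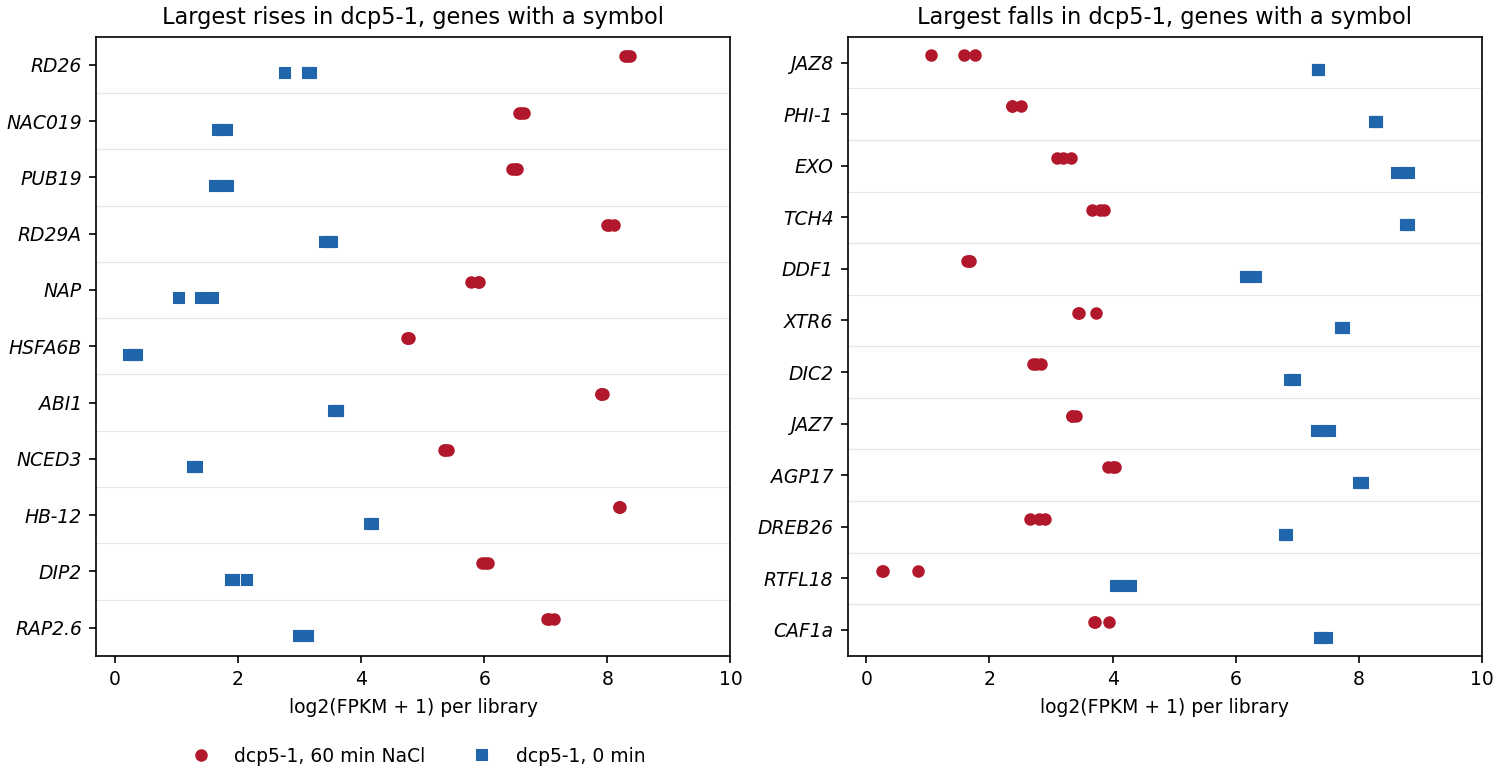
Levels of the 11 nuclear genes with the largest rise (left; RBCS1A is left out) and the 12 with the largest fall (right) in dcp5-1 among those with a symbol and at least 5 FPKM in the higher group, as log2(FPKM + 1); each point is 1 library, red circles for 60 min in NaCl and blue squares for 0 min. The 3 libraries of 60 min sit apart from the 3 of 0 min in every gene, from a change of 5.29 for RD26 and -5.87 for JAZ8 to 3.99 for RAP2.6 and -3.63 for CAF1a.

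For the 4 genes of the largest rises among those with a symbol and a fold, the 250 bases upstream of the annotated start were read. They were taken from the TAIR10.1 genome and searched for the letters of elements that ABA and dehydration factors are known to bind. Capitals mark the ABRE core ACGTG and the DRE core CCGAC on either strand, so CACGT and GTCGG in capitals are matches on the other strand and CACGTG counts as 2. The windows are given 5′ to 3′ on the gene's strand. RD26 lies at chr4:13709171-13709420 on the minus strand, NAC019 at chr1:19698483-19698732 on the minus strand, PUB19 at chr1:22198016-22198265 on the plus strand and RD29A at chr5:21240467-21240716 on the plus strand.
RD26: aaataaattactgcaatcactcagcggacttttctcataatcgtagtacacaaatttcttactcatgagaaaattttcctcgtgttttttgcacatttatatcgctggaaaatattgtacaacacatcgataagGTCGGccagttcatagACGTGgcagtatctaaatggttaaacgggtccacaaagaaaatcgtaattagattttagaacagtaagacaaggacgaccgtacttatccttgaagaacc
NAC019: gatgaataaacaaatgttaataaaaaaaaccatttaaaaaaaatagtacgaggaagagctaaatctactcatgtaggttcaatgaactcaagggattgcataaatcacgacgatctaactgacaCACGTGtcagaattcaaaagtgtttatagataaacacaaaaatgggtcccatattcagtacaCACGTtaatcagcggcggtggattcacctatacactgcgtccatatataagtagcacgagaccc
PUB19: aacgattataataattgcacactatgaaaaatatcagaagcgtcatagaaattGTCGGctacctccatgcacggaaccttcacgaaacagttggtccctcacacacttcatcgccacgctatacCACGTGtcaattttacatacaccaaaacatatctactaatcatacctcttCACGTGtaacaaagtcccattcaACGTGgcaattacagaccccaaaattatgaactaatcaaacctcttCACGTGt
RD29A: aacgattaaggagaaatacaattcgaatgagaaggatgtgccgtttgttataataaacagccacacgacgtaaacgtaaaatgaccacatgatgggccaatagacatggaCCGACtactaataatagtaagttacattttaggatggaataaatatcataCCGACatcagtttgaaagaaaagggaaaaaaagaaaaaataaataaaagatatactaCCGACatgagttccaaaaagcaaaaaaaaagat
The RD26 window held 1 ACGTG and 1 CCGAC, and the NAC019 window 3 ACGTG, 2 of them in a single CACGTG. PUB19 had 7 ACGTG, 6 of them as 3 copies of CACGTG, and 1 CCGAC. RD29A had 3 CCGAC.

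The 12 genes with the largest fall, chosen in the same way, begin with JAZ8. JAZ8, a repressor of jasmonate responses, had 2.00, 2.40 and 1.07 FPKM at 60 min, against 160.4, 160.1 and 162 FPKM at 0 min (change -5.87, SE 0.16, limma adjusted p = 8.43e-11). PHI-1, a phosphate-induced gene of the EXO family, had 4.15, 4.17 and 4.72 FPKM at 60 min, against 312, 305 and 312 FPKM at 0 min (change -5.86, SE 0.11, limma adjusted p = 4.62e-12). EXO, a cell wall protein of brassinosteroid-promoted growth, had 8.16, 7.54 and 9.03 FPKM at 60 min, against 419, 394 and 450.0 FPKM at 0 min (change -5.51, SE 0.07, limma adjusted p = 3.27e-13). These 3 transcripts thus stood above 150 FPKM in every library before salt and below 10 FPKM in every library after it. TCH4, a touch-induced xyloglucan enzyme, had 11.7, 12.8 and 13.5 FPKM at 60 min, against 448, 444 and 436 FPKM at 0 min, a change of -5.02. DDF1, a DREB-family factor, had 2.21, 2.19 and 2.1 FPKM at 60 min, against 79.4, 72.1 and 70.5 FPKM at 0 min, a change of -4.56. XTR6, another xyloglucan enzyme, had 12.2, 9.88 and 9.94 FPKM at 60 min, against 212, 215 and 209 FPKM at 0 min, a change of -4.19. In each of these the groups lay far apart, and the replicates close together.

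DIC2, a mitochondrial dicarboxylate carrier, had 5.75, 5.54 and 6.12 FPKM at 60 min, against 117, 124 and 121 FPKM at 0 min, a change of -4.16. JAZ7, another jasmonate repressor, had 9.09, 9.60 and 9.13 FPKM at 60 min, against 159.7, 172 and 185 FPKM at 0 min, a change of -4.07. AGP17, an arabinogalactan protein of the cell surface, had 15.5, 15.1 and 14.2 FPKM at 60 min, against 255, 268 and 266 FPKM at 0 min, a change of -4.05. DREB26, RTFL18 and CAF1a are the last of these 12, again with no library of one time inside the range of the other. DREB26, a DREB-family factor, had 5.98, 5.34 and 6.46 FPKM at 60 min, against 112, 111 and 113 FPKM at 0 min (-4.03). RTFL18, a small peptide of the ROTUNDIFOLIA family, had 0.203, 0.192 and 0.796 FPKM at 60 min, against 15.6, 17.4 and 18.6 FPKM at 0 min (-3.73). CAF1a, a deadenylase that shortens mRNA tails, had 12.0, 12.1 and 14.3 FPKM at 60 min, against 164, 177 and 168 FPKM at 0 min (-3.63).

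Of the 12 falling genes PHI-1 and DIC2 carry the letters CGCGTT, the rapid stress element known from genes that respond within minutes to wounding and other stimuli, and their windows are shown for that. Capitals mark CGCGTT or its reverse complement. PHI-1 lies at chr1:12851733-12851982 and DIC2 at chr4:12686209-12686458, both on the plus strand of TAIR10.1.
PHI-1: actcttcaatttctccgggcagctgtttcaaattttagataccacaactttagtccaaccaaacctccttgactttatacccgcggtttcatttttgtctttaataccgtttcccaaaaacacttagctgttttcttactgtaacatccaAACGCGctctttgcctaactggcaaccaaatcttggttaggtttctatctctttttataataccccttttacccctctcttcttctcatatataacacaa
DIC2: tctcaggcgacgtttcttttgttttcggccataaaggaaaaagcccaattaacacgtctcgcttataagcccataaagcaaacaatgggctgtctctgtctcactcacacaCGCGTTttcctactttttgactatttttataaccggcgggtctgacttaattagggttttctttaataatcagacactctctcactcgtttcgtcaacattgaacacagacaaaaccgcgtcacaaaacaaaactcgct
A match is only a run of letters, and these were found by searching both strands.

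Across the 18718 tested nuclear coding genes with a 250-base window, ACGTG (on either strand, overlaps with CACGTG counted) occurred in 23.9%. It occurred in 46.2% of the 186 genes that rose by 2 log2 units or more in dcp5-1, in 37.0% of the 654 that rose by 1 to 2, and in 21.2% of the 240 that fell by 2 or more. CACGTG, the G-box, was present in 22.0%, 14.4% and 5.00% of those classes, against 7.63% of all windows. CCGAC was present in 21.5%, 16.7% and 8.75%, against 13.1%. CGCGTT ran the other way at the falling end: it was present in 7.92% of the genes that fell by 2 or more and in 3.23% of those that rose by 2 or more, against 2.82% of all. Among the named genes ACGTG was present in 6 of the 11 rises and 3 of the 12 falls, CCGAC in 3 and 0, and CGCGTT in 0 and 2. In all, 10 motifs were searched, and not all are described here. The most frequent one among the falls was the W-box core TTGAC, in 8 of the 12 falls and 6 of the 11 rises. Its share over all windows is not given here, so these counts cannot be read as a difference from other genes. Genes are not independent replicates, and the shares are given with no test.

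**Figure D2:**
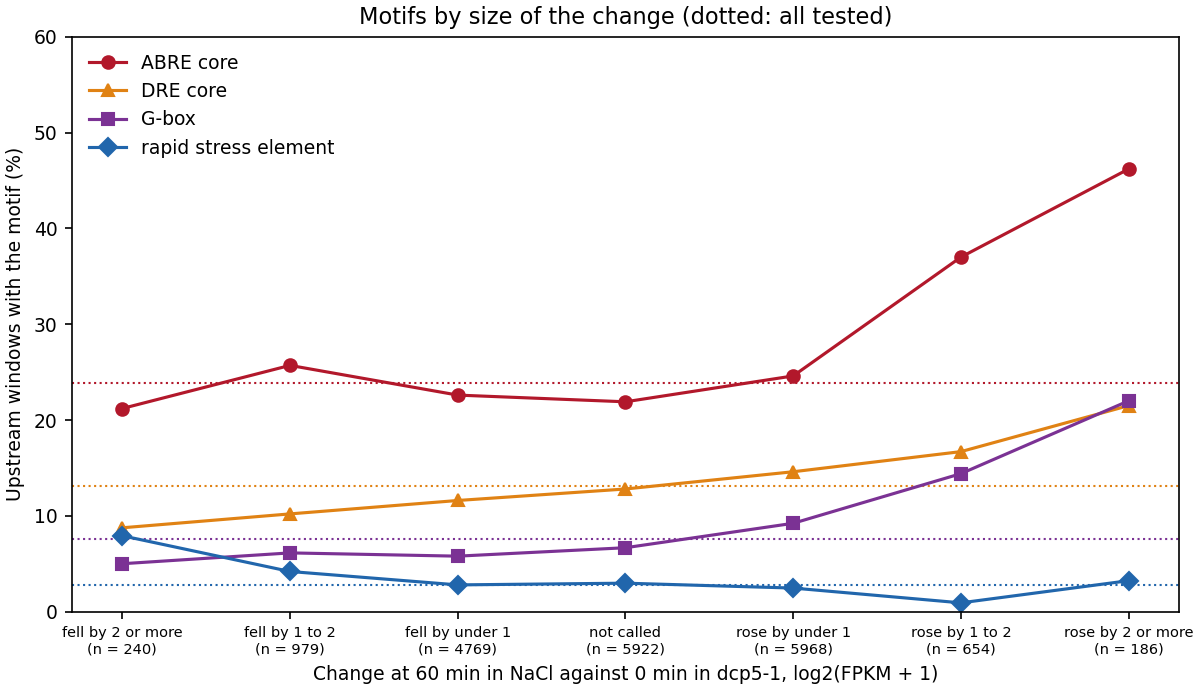
Share of 250-base upstream windows that hold each motif (vertical axis, percent) in 7 classes of the dcp5-1 change, from falls of 2 or more to rises of 2 or more log2 units; n is the number of windows and dotted lines are the shares over all 18718. The ABRE core climbs from 24.6% in genes that rose by under 1 to 46.2% in those that rose by 2 or more, and the rapid stress element is highest, at 7.92%, in the steepest falls.

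The ABA pathway moved in dcp5-1 at the levels of synthesis, reception and output. Of 11 tested genes of ABA synthesis and breakdown 7 rose, 2 fell and 2 did not pass, with a median change of 0.34 against 0.02 for all loci. The other 6 of the 17 members were under the filter. Beside NCED3, BGLU18, a glucosidase that frees ABA from its glucose ester, had 24.8, 24.2 and 24.7 FPKM at 60 min, against 4.22, 4.84 and 4.81 FPKM at 0 min. CYP707A2, an ABA 8′-hydroxylase that breaks the hormone down, rose by 2.54, while another of these hydroxylases, CYP707A3, had 3.80, 4.08 and 4.18 FPKM at 60 min, against 23.9, 25.3 and 24.5 FPKM at 0 min and fell by 2.35. Members of one breakdown family thus changed in opposite directions. The xanthoxin dehydrogenase gene ABA2 had a change of -0.01 (SE 0.12, limma adjusted p = 0.931).

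Of 9 ABA receptors 7 fell and 2 rose (median -1.38; 5 more were under the filter). PYL4 had 67.3, 69.0 and 71.7 FPKM at 60 min, against 365, 387 and 362 FPKM at 0 min, PYL5 fell by 2.39 and PYL6 by 2.27. PYL7 went the other way, with 50.0, 51.9 and 52.3 FPKM at 60 min, against 9.99, 9.66 and 10.2 FPKM at 0 min, and so did RCAR1, which rose by 1.39. All 8 tested clade A PP2C phosphatases rose (median 2.55), and only AHG1 was under the filter. After ABI1, HAI1 had 76.7, 82.8 and 81.3 FPKM at 60 min, against 5.45, 6.24 and 5.15 FPKM at 0 min and HAI2 had 11.4, 13.9 and 11.6 FPKM at 60 min, against 0.135, 0.164 and 0 FPKM at 0 min. Both of these highly ABA-induced phosphatases had all 3 libraries of 60 min far above those of 0 min. Of 10 kinases of the SnRK2 family 4 rose, 1 fell and 5 did not pass (median 0.12). With the length trend removed, 4 rose and 3 fell. OST1, the kinase of stomatal closure, had 16.7, 16.3 and 16.5 FPKM at 60 min, against 19.8, 18.8 and 21.1 FPKM at 0 min and fell by 0.26. SNRK2.9 rose by 1.03, SNRK2.5 by 0.85 and SNRK2.3 by 0.79, while SNRK2.2 did not pass (0.05).

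Of 8 ABF and ABI5 bZIP factors, which bind ABRE, 6 rose and 2 did not pass (median 1.33). GBF3 had 97.6, 98.3 and 95.8 FPKM at 60 min, against 19.6, 20.6 and 20.1 FPKM at 0 min, and ABF2 had 73.6, 69.7 and 75.1 FPKM at 60 min, against 15.9, 16.1 and 14.3 FPKM at 0 min. ABF3 rose by 1.58. The members that did not pass, AREB3 and EEL, had changes of -0.01 and 0.00. Among 29 ABA and dehydration effectors, which protect membranes and proteins, 22 rose, 4 fell and 3 did not pass (median 1.23). COR15A, a chloroplast cold and drought protein, had 122, 133 and 133 FPKM at 60 min, against 13.1, 12.6 and 10.9 FPKM at 0 min. RD29B, an ABA-induced relative of RD29A, had 27.5, 28.3 and 27.4 FPKM at 60 min, against 3.38, 3.19 and 3.00 FPKM at 0 min. Its level in FPKM, which is per length, stayed well below that of RD29A at 60 min. Those that fell were LTP4 (-0.55), HVA22E (-0.33), ERD6 (-0.31) and the dehydrin gene RAB18, which had 99.8, 114 and 108 FPKM at 60 min, against 126, 125 and 119 FPKM at 0 min (-0.20). With the length trend removed, 25 of the effectors rose and 1 fell. The HVA22E change was then 0.13, that of RAB18 0.08 and that of LTP4 -0.13, and none of these falls passed, while quantile normalization left RAB18 at 0.00.

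Of 24 osmolyte enzymes 15 rose and 6 fell (median 0.50). GolS2, which makes galactinol for raffinose, had 15.3, 14.2 and 14.3 FPKM at 60 min, against 1.09, 0.688 and 0.927 FPKM at 0 min. P5CS1, the first enzyme of proline synthesis, had 252, 251 and 252 FPKM at 60 min, against 38.0, 38.1 and 36.4 FPKM at 0 min. RS5, a raffinose synthase, had 23.9, 23.1 and 23.6 FPKM at 60 min, against 3.18, 3.90 and 3.12 FPKM at 0 min. These 3 genes thus rose together without overlap between times. P5CR, the enzyme that completes proline synthesis, had 50.5, 50.0 and 47.8 FPKM at 60 min, against 103, 108 and 102 FPKM at 0 min and fell by 1.06. MIOX1 and MIOX2, inositol oxygenases, fell by 1.25 and fell by 0.55. Of 22 wax and cutin genes 14 rose and 4 fell (median 0.54; 12 and 7 with the length trend removed). KCS2, CER1 and KCS6, which extend fatty acids or make wax alkanes, rose by 1.98, 1.72 and 1.62. KCS6 had 535, 520.3 and 523 FPKM at 60 min, against 173, 169 and 170.3 FPKM at 0 min. MYB30, a regulator of very long fatty acids in defence, fell by 1.52.

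Transcription factor families had called members in both directions. Of 14 NAC factors of stress and senescence 12 rose and 2 fell (median 2.25). After RD26, NAC019 and NAP, NAC6 (the senescence regulator ORE1) had 47.1, 46.9 and 47.1 FPKM at 60 min, against 2.38, 2.25 and 1.86 FPKM at 0 min. The falls were in NAC042 (-0.98) and NAC062 (-0.76), a membrane-bound factor. Of 14 HD-Zip I factors 8 rose and 5 fell (median 0.40). HB-7, the paralog of HB-12, had 326, 350.1 and 365 FPKM at 60 min, against 45.2, 41.2 and 44.7 FPKM at 0 min, and HB52 had 26.8, 27.7 and 26.8 FPKM at 60 min, against 1.84, 2.37 and 2.47 FPKM at 0 min. HB20, HB-3 and AtHB23 fell by 0.82, fell by 0.61 and fell by 0.52.

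DREB and ERF factors held members at both ends. Of 13 CBF and DREB factors 6 rose and 4 fell (median 0.24). DREB2A, a drought and heat factor of the DRE branch, had 31.4, 30.8 and 30.3 FPKM at 60 min, against 3.40, 2.83 and 2.86 FPKM at 0 min. ddf2, the paralog of DDF1, had 1.05, 0.856 and 1.19 FPKM at 60 min, against 18.3, 16.2 and 16.8 FPKM at 0 min. The cold factor CBF2 had 10.9, 10.1 and 13.7 FPKM at 60 min, against 11.4, 14.4 and 13.1 FPKM at 0 min, with overlapping groups and a change of -0.16 (SE 0.13, limma adjusted p = 0.3). CBF3 and TINY rose by 1.51 and 1.74. Of 21 ERF factors 6 rose, 10 fell and 5 did not pass (median -0.15). ERF105, a factor known from fast cold and light responses, had 3.73, 3.54 and 3.24 FPKM at 60 min, against 45.8, 45.9 and 38.3 FPKM at 0 min, and ERF13 and ERF109 fell by 2.62 and fell by 2.37. ERF53, a drought-induced factor, had 20.8, 20.7 and 19.5 FPKM at 60 min, against 1.44, 1.39 and 1.20 FPKM at 0 min. ERF9 and ERF8 rose by 2.55 and 1.28.

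Of 19 heat shock factors 11 rose and 4 fell (median 0.43). HSFA6A, the close relative of HSFA6B, had 22.5, 21.0 and 23.0 FPKM at 60 min, against 2.79, 2.97 and 1.3 FPKM at 0 min. HSFA1E rose by 1.66. HSFA3, a target of DREB2A under heat, fell by 1.12. Of 8 C2H2 zinc finger factors of stress 5 fell and 2 rose (median -0.82). ZAT7 had 0.401, 0.264 and 0.0652 FPKM at 60 min, against 10.2, 11.6 and 9.93 FPKM at 0 min, while ZAT6, a regulator of root growth and stress responses, had 28.4, 32.4 and 27.7 FPKM at 60 min, against 5.16, 4.84 and 4.58 FPKM at 0 min. STZ, also called ZAT10, fell by 1.29. The 49 tested WRKY factors, of 70 listed, had 19 higher and 19 lower (median 0.06, and -0.07 with the length trend removed), close to the shares of all loci. WRKY18, of basal defence, had 24.0, 24.0 and 23.4 FPKM at 60 min, against 161, 149 and 158 FPKM at 0 min. WRKY30 and WRKY6 rose by 1.67 and 1.39.

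Of 29 ion transport genes 17 rose, 4 fell and 8 did not pass (median 0.35). The plasma membrane proton pump AHA1 had 150.2, 144 and 151 FPKM at 60 min, against 54.0, 52.7 and 48.3 FPKM at 0 min. The vacuolar proton pyrophosphatase AVP1 rose by 1.03 and the pump AHA3 by 1.04. NHX1, which exchanges sodium for protons at the vacuole, had 67.9, 65.3 and 67.1 FPKM at 60 min, against 33.6, 32.3 and 32.5 FPKM at 0 min, a rise of 1.00 without overlap. The plasma membrane antiporter SOS1, which exports sodium, had 3.07, 3.42 and 3.09 FPKM at 60 min, against 2.98, 2.60 and 2.18 FPKM at 0 min, a change of 0.23 (SE 0.10, limma adjusted p = 0.0626). Its lowest library of 60 min lay above the highest of 0 min by little, and without dcp5-1 0 min replicate 1 the change passed, at 0.31. The kinase SOS2, which activates SOS1, had a change of 0.01, and the calcium sensor SOS3 rose by 0.67, a call that was lost with the length trend removed (0.31). SLAH3, an anion channel, had 15.8, 16.1 and 15.9 FPKM at 60 min, against 72.7, 73.6 and 76.4 FPKM at 0 min, the steepest fall of the list at -2.15. Of 24 CBL calcium sensors and CIPK kinases 9 rose and 8 fell (median -0.03), close to the shares of all loci, but 7 rose and 11 fell with the length trend removed. CIPK25 had 11.6, 12.2 and 11.8 FPKM at 60 min, against 1.05, 1.01 and 1.17 FPKM at 0 min, and CBL1 fell by 1.41. Of 27 aquaporins 14 fell and 6 rose (median -0.27), but with quantile normalization 11 fell and 10 rose (median 0.09). PIP1;5 had 55.5, 58.2 and 56.4 FPKM at 60 min, against 122, 128 and 120.1 FPKM at 0 min, and the tonoplast channel DELTA-TIP fell by 0.98.

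Of 20 auxin GH3 and SAUR genes 14 fell and 2 rose (median -1.84). SAUR63 had 2.91, 3.50 and 3.84 FPKM at 60 min, against 48.2, 45.3 and 53.7 FPKM at 0 min. SAUR15 and SAUR20 fell by 2.97 and fell by 2.90. SAUR genes are near-identical in tandem groups, so reads may be divided among SAUR19 to SAUR24. Of 22 Aux/IAA repressors 12 fell and 4 rose (median -0.23). IAA6 fell by 1.81 and IAA28 rose by 0.78. With quantile normalization 9 fell and 6 rose.

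Of 24 xyloglucan enzymes, which cut and rejoin wall polymers, 18 fell and 2 rose (median -1.22). After TCH4 and XTR6, XTH18 had 27.2, 26.8 and 27.5 FPKM at 60 min, against 245, 257 and 249.6 FPKM at 0 min. Against that, XTH31 had 89.5, 87.6 and 90.9 FPKM at 60 min, against 49.0, 49.9 and 52.7 FPKM at 0 min and rose by 0.81. Of 7 genes of the EXO family 5 fell and 1 rose (median -0.57; 2 rose with quantile normalization). EXL5 had 10.1, 11.2 and 11.7 FPKM at 60 min, against 112, 103 and 108 FPKM at 0 min. Of 22 expansins, which loosen walls, 11 fell and 7 rose (median -0.29). EXLA3 and EXLA1 fell by 1.83 and fell by 1.72, while EXPA10 had 92.6, 96.4 and 100.4 FPKM at 60 min, against 24.1, 21.2 and 27.1 FPKM at 0 min. Of 8 cellulose synthases 4 rose and 1 fell (median 0.13), but 2 rose and 5 fell with the length trend removed. CESA1, of the primary wall complex, had 84.5, 84.1 and 83.2 FPKM at 60 min, against 39.0, 39.9 and 39.5 FPKM at 0 min.

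Of 19 touch genes and calmodulin-like sensors 12 fell and 0 rose (median -0.91). TCH2 had 41.5, 44.7 and 40.6 FPKM at 60 min, against 381, 379.7 and 396 FPKM at 0 min, and CML38 had 14.0, 13.3 and 13.5 FPKM at 60 min, against 129, 118 and 111 FPKM at 0 min. The calmodulin genes CAM1 to CAM4 and CAM7 did not pass, with changes between -0.15 and 0.14. These are the 5 that were called higher with quantile normalization, at 0.24 to 0.42, and with the length trend removed 3 of the list were higher. Of 12 JAZ repressors 6 fell and 2 rose (median -0.35). JAZ5 followed JAZ8 and JAZ7 with 8.85, 7.68 and 9.11 FPKM at 60 min, against 30.3, 30.6 and 29.5 FPKM at 0 min. JAZ12 had 271, 265 and 273 FPKM at 60 min, against 154, 155 and 158 FPKM at 0 min and rose by 0.79. Of 18 genes of jasmonate synthesis and turnover 8 rose and 9 fell (median -0.21). CYP94C1 and CYP94B3, which oxidize the active hormone, fell by 2.29 and fell by 2.07, and AOC2, an allene oxide cyclase, had 100.4, 96.6 and 100.3 FPKM at 60 min, against 32.2, 28.3 and 32.3 FPKM at 0 min. Of 8 genes of ethylene synthesis 3 rose and 3 fell (median 0.13, and -0.05 with the length trend removed). ACS11 had 0.127, 0.254 and 0.186 FPKM at 60 min, against 10.8, 11.8 and 11.5 FPKM at 0 min, ACS8 fell by 2.72 and ACS6 by 1.61, while ACS7 had 9.49, 10.1 and 11.1 FPKM at 60 min, against 2.68, 3.50 and 3.31 FPKM at 0 min.

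**Figure D3:**
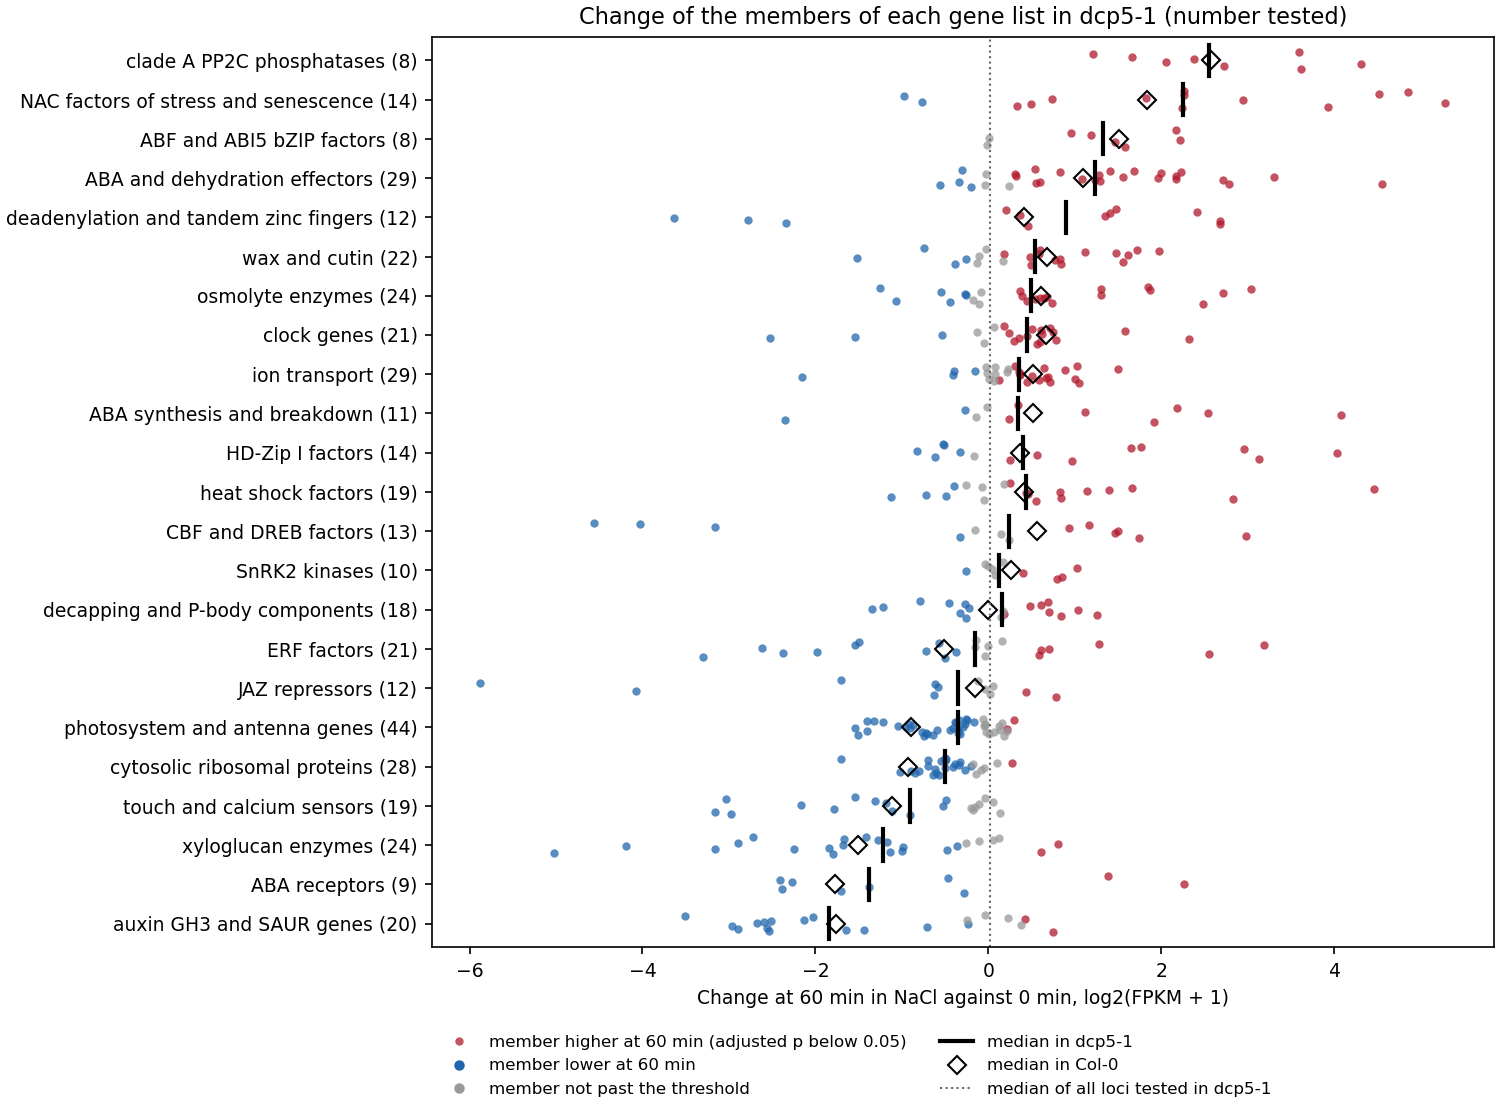
Change at 60 min against 0 min in dcp5-1, in log2(FPKM + 1), of every tested member of 23 gene lists (number in brackets). Points are genes, red for called higher, blue for called lower and grey for not called; black bars are list medians in dcp5-1, open diamonds those in Col-0, and the dotted line the median of all loci. Clade A PP2C phosphatases lie wholly to the right with a median of 2.55, and auxin GH3 and SAUR genes mostly to the left with a median of -1.84.

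Of 44 nuclear photosystem and antenna genes 30 fell and 2 rose (median -0.36), but 15 fell and 18 rose with quantile normalization (median 0.14), and 19 fell and 8 rose with the length trend removed. LHB1B1, a light-harvesting protein, had 169.6, 181 and 187 FPKM at 60 min, against 528, 529 and 515 FPKM at 0 min. LHCB3 and CAB3 fell by 1.51 and fell by 1.40. All of these light-harvesting genes kept clear separation between times. Rubisco and Calvin cycle genes had 5 of 15 higher, RBCS1A among them, and 6 lower (median -0.04). The lower ones include RBCS1B, RBCS2B and RBCS3B. With quantile normalization 9 were higher and 2 lower. RCA, the activase of Rubisco, had 2886, 2760.2 and 2923 FPKM at 60 min, against 1202, 1275 and 1147 FPKM at 0 min, and CP12-1, a small regulator of the cycle, fell by 1.54. Of 13 chlorophyll synthesis enzymes 7 rose and 3 fell (median 0.39; 5 fell with the length trend removed). GUN5, a subunit of the Mg-chelatase, had 331, 324 and 322 FPKM at 60 min, against 91.1, 92.4 and 92.1 FPKM at 0 min, while CHLM, which acts on its product, had 187, 188 and 189.5 FPKM at 60 min, against 338, 343 and 334 FPKM at 0 min and fell by 0.84.

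Of 28 cytosolic ribosomal protein genes 22 fell and 1 rose (median -0.50). With quantile normalization 16 fell and 6 rose, and with the length trend removed 16 fell and 3 rose. RPS15A had 287, 289 and 294 FPKM at 60 min, against 958, 936 and 944 FPKM at 0 min. Ribosome biogenesis factors lay on the other side, with 7 of 12 higher and 1 lower (median 0.29). NUC1, a nucleolin, had 76.6, 73.8 and 78.2 FPKM at 60 min, against 45.7, 46.3 and 42.3 FPKM at 0 min. The single member that was lower was not called with quantile normalization or with the length trend removed.

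Within the decay machinery that DCP5 belongs to, no gene of the LSM ring rose and every other tested member did, as long as the length trend was kept. Of 18 decapping and P-body components 8 rose and 8 fell (median 0.16). The PAT1-family gene AT4G14990 had 22.6, 20.7 and 22.1 FPKM at 60 min, against 8.68, 8.05 and 8.97 FPKM at 0 min, the decapping scaffold VCS had 11.1, 11.2 and 10.4 FPKM at 60 min, against 4.56, 4.62 and 5.21 FPKM at 0 min, and the catalytic subunit DCP2 rose by 0.84. The 8 that fell were all LSM genes, led by LSM6B with 44.3, 47.7 and 45.2 FPKM at 60 min, against 112, 123 and 118 FPKM at 0 min, LSM3B (-1.22) and LSM2 (-0.79). With the length trend removed, 12 of the 18 were higher and 3 lower, so some LSM genes were then higher too. The 5′ to 3′ exonuclease XRN4 rose by 0.48. Of 12 deadenylation and tandem zinc finger genes 9 rose and 3 fell (median 0.90). TZF5, OZF2 and OZF1, zinc finger proteins of ABA and stress responses, rose by 2.68, 2.68 and 2.41. OZF2 had 37.9, 37.3 and 39.2 FPKM at 60 min, against 5.68, 4.82 and 4.79 FPKM at 0 min. With CAF1a, the deadenylase CAF1b had 4.95, 4.96 and 4.46 FPKM at 60 min, against 31.0, 28.7 and 25.6 FPKM at 0 min, and the salt-inducible zinc finger gene SZF1 had 6.27, 5.96 and 6.53 FPKM at 60 min, against 49.9, 46.5 and 50.2 FPKM at 0 min. Both fell, by changes of -2.34 and -2.78. Of 16 stress granule and translation factors 6 rose and 4 fell (median 0.12), and eIFiso4G1 had the largest change with 55.5, 53.1 and 53.5 FPKM at 60 min, against 26.4, 27.7 and 26.9 FPKM at 0 min.

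Of 21 clock genes 15 rose and 3 fell (median 0.44), and with the length trend removed 12 rose and 6 fell. RVE1, a morning factor of auxin rhythm, had 68.4, 64.7 and 70.0 FPKM at 60 min, against 12.9, 12.3 and 13.2 FPKM at 0 min. PRR9 rose by 1.58, and RVE4 had 41.6, 38.4 and 37.7 FPKM at 60 min, against 118, 115 and 114 FPKM at 0 min. Of 10 hypoxia genes 7 rose and 1 fell (median 0.49). ETR2, an ethylene receptor, had 8.34, 7.16 and 7.69 FPKM at 60 min, against 1.16, 1.44 and 1.19 FPKM at 0 min, and ADH1, alcohol dehydrogenase, rose by 1.00. ERF73, listed there as HRE1, fell by 1.54.

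The response of dcp5-1 was then set against that of Col-0. In Col-0, 7223 loci (36.3%) were higher and 7092 (35.7%) lower at 60 min. The difference of the 2 changes was tested as an interaction: it was more positive in dcp5-1 for 3248 loci (16.3%) and more negative for 1602 (8.06%), so 67.0% of these calls were positive. With quantile normalization the counts were 2033 and 2077, 49.5% positive, so the balance between directions rests on the scaling. The difference uses the dcp5-1 libraries of the changes given above, so the 2 are not independent.

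Differences were ranked among loci with a called difference, at least 5 FPKM in any group and no overlap between times in dcp5-1. A tandem group of lipid-transfer-like genes on chromosome 4 held 4 of the 8 most positive differences so ranked. AZI1, of systemic defence priming, had 118, 128 and 105 FPKM at 60 min, against 19.0, 18.9 and 19.6 FPKM at 0 min in dcp5-1, and in Col-0 79.4, 82.8 and 76.9 FPKM at 60 min, against 40.8, 53.7 and 51.6 FPKM at 0 min. EARLI1, its neighbour, had 108, 112 and 116 FPKM at 60 min, against 15.4, 16.2 and 16.1 FPKM at 0 min in dcp5-1, and in Col-0 107, 119.9 and 105 FPKM at 60 min, against 54.9, 67.9 and 68.3 FPKM at 0 min. The differences were 1.84 (SE 0.13, limma adjusted p = 2.02e-05) and 1.95 (SE 0.11, limma adjusted p = 9.31e-06). AT4G12490, of the same family, had 30.0, 27.4 and 32.7 FPKM at 60 min, against 1.69, 1.02 and 1.75 FPKM at 0 min in dcp5-1, and in Col-0 30.2, 34.9 and 30.0 FPKM at 60 min, against 25.3, 29.9 and 30.3 FPKM at 0 min (difference 3.50, SE 0.17, limma adjusted p = 5.08e-06). In all 3 genes the dcp5-1 libraries of 0 min lay below every other library, and those of 60 min reached the Col-0 range or above it. AT4G12495 overlaps AT4G12490 on the opposite strand, so without stranded counting their reads cannot be told apart; its difference was 3.34. The next gene was weaker but moved the same way: AT4G12500 had 2.53, 3.05 and 2.61 FPKM at 60 min in dcp5-1, against 0.866, 0.380 and 0.384 FPKM at 0 min (difference 0.97, limma adjusted p = 0.00311). The following members fell in both genotypes, 2 of them near-identical copies among which reads may be divided. AT4G12510 had 9.55, 12.3 and 12.3 FPKM at 60 min in dcp5-1, against 118, 69.9 and 109 FPKM at 0 min, a change of -2.98, and in Col-0 its change was -3.38. AIR1, at the far end, had changes of -1.95 and -2.59.

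OLEO2, an oleosin of seed oil bodies, had 1.94, 2.35 and 2.11 FPKM at 60 min, against 0.753, 0.726 and 0.896 FPKM at 0 min in dcp5-1, and in Col-0 4.15, 5.23 and 2.99 FPKM at 60 min, against 14.8, 17.9 and 16.5 FPKM at 0 min. It rose in the mutant (0.81) and fell in the wild type (-1.78), a difference of 2.59 (limma adjusted p = 2.35e-05). All 4 groups of OLEO2 lay apart, with dcp5-1 below Col-0 at each time. AT5G50335, an uncharacterized protein, had a difference of 1.86, the miRNA precursor MIR167d one of 2.12 and the antisense RNA AT3G08170 one of 3.99. AT3G08170 had 80.0, 37.2 and 18.8 FPKM at 60 min, against 0, 2.19 and 0 FPKM at 0 min in dcp5-1. Its difference thus depends on the pseudocount, and its replicates lay far apart. MIR167d fell in each genotype, with changes of -0.81 in dcp5-1 and -2.92 in Col-0. In dcp5-1 it had 0.817, 0.367 and 1.62 FPKM at 60 min, against 1.82, 2.11 and 2.98 FPKM at 0 min. It also spread widely in Col-0 at 0 min, with 20.0, 12.2 and 8.03 FPKM. NAC019 had 57.7, 56.6 and 55.4 FPKM at 60 min, against 4.39, 5.67 and 4.39 FPKM at 0 min in Col-0, so that its rise in dcp5-1 was larger by 1.54 (SE 0.11, limma adjusted p = 1.8e-05). The differences of NAC6 and RD26 were 1.28 and 0.94.

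Among the most negative differences PROPEP3, the precursor of a danger peptide, had 3.07, 3.09 and 3.95 FPKM at 60 min, against 18.2, 16.7 and 21.1 FPKM at 0 min in dcp5-1, and in Col-0 5.76, 6.92 and 7.26 FPKM at 60 min, against 7.82, 7.34 and 13.2 FPKM at 0 min (difference -1.76, SE 0.25, limma adjusted p = 0.000903). bHLH071 had 2.40, 2.87 and 2.55 FPKM at 60 min, against 9.31, 10.4 and 9.61 FPKM at 0 min in dcp5-1, and in Col-0 7.62, 7.04 and 6.63 FPKM at 60 min, against 8.42, 7.74 and 8.13 FPKM at 0 min (difference -1.41, SE 0.10, limma adjusted p = 1.72e-05). WOX4, a homeobox factor of the vascular cambium, had 3.67, 3.55 and 2.65 FPKM at 60 min, against 9.92, 9.38 and 9.85 FPKM at 0 min in dcp5-1, and in Col-0 4.27, 3.81 and 3.91 FPKM at 60 min, against 4.65, 3.80 and 3.74 FPKM at 0 min (difference -1.31, SE 0.14, limma adjusted p = 0.000204). In PROPEP3, bHLH071 and WOX4 alike the dcp5-1 libraries of 0 min were the highest of all 4 groups and those of 60 min the lowest. AT2G22760, a bHLH factor, AT4G33467 and AT5G01881, both uncharacterized, differed by -1.39, -1.41 and -1.78, where the call of AT4G33467 was lost with a pseudocount of 0.1. The pseudogene AT5G11242 was listed at 0 in all 3 dcp5-1 libraries of 60 min, so its difference of -7.53 depends on the pseudocount. In Col-0 it had 17.7, 18.3 and 0 FPKM at 60 min, against 0 in every library of 0 min. ATCG01300, which the annotation used here does not name, differed by -1.82. Its fall in dcp5-1 alone (-0.63) was lost without dcp5-1 0 min replicate 1 (-0.49) and without dcp5-1 60 min replicate 2 (-0.64) or 3 (-0.46).

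With the same filter, the 6 largest opposite changes called in each genotype were in AT5G11242, OLEO2, ATCG01300, AT2G27830, BZS1 and TT5. Smaller opposite changes were called too, as in PRK, with 0.73 in dcp5-1 and -0.26 in Col-0. BZS1, a B-box factor of light and brassinosteroid responses, had 8.84, 10.9 and 9.48 FPKM at 60 min, against 6.08, 5.56 and 7.03 FPKM at 0 min in dcp5-1, and in Col-0 7.46, 7.48 and 7.06 FPKM at 60 min, against 10.8, 12.0 and 11.2 FPKM at 0 min (difference 1.14). TT5, a chalcone isomerase of flavonoid synthesis, had 36.2, 34.5 and 35.0 FPKM at 60 min, against 51.2, 47.2 and 53.7 FPKM at 0 min in dcp5-1, and in Col-0 39.1, 34.3 and 37.7 FPKM at 60 min, against 20.8, 26.7 and 23.7 FPKM at 0 min (difference -1.14). AT2G27830 had a difference of 1.53. BZS1 thus rose in the mutant and fell in Col-0, and TT5 did the reverse.

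**Figure D4:**
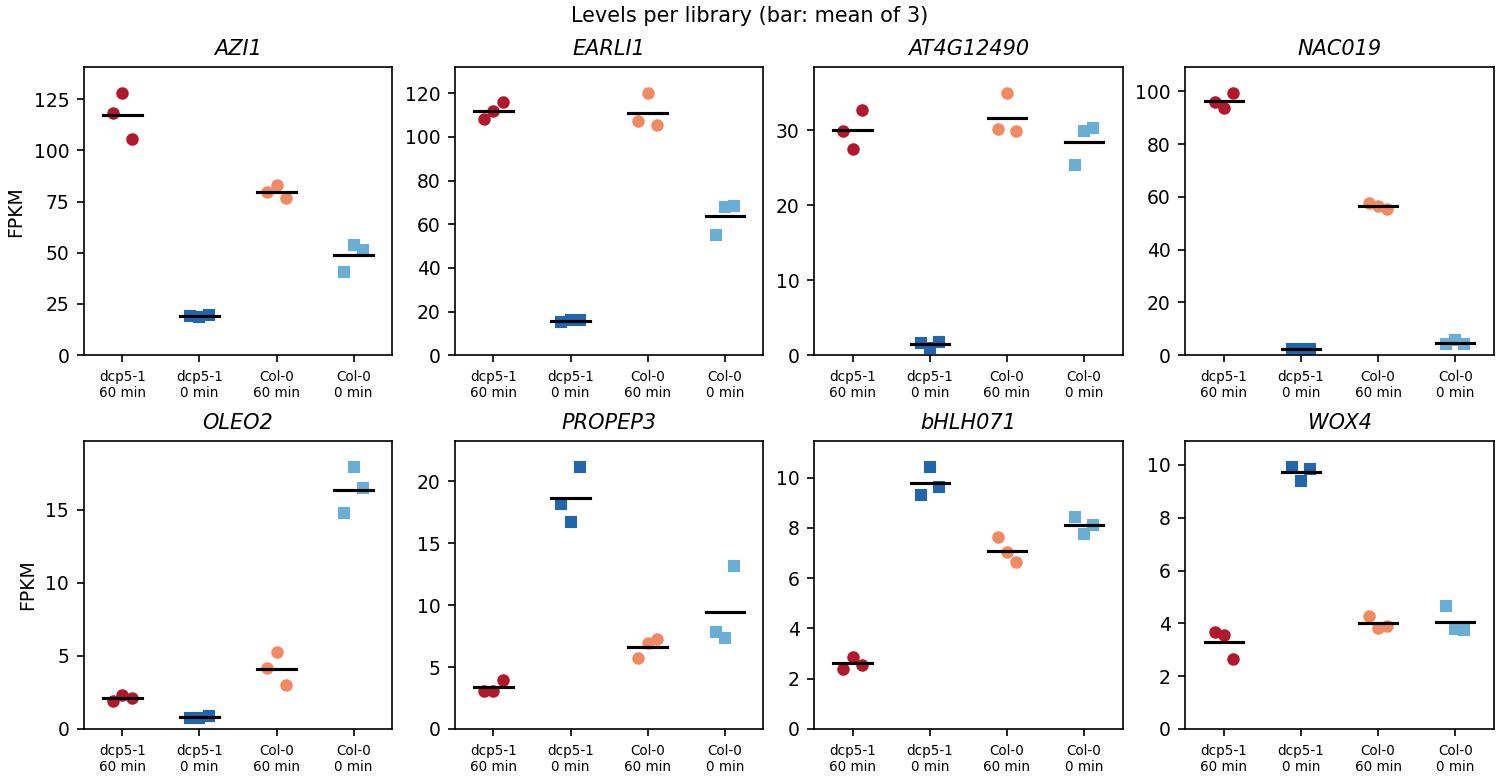
FPKM of 8 genes in every library (points) with the mean of 3 (bars), in the order dcp5-1 60 min, dcp5-1 0 min, Col-0 60 min and Col-0 0 min. AZI1, EARLI1 and AT4G12490 are lowest in dcp5-1 at 0 min and reach or pass the Col-0 level at 60 min, whereas PROPEP3 and WOX4 are highest in dcp5-1 at 0 min.

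Gene lists differed in how their members' differences fell, read against 16.3% positive and 8.06% negative calls over all loci. Of 14 NAC factors 9 had a more positive change in dcp5-1 and 0 a more negative one (6 and 1 with quantile normalization). Of 21 ERF factors the counts were 8 and 0 (7 and 2), of 12 deadenylation and zinc finger genes 6 and 0 (5 and 1) and of 24 xyloglucan enzymes 10 and 1 (8 and 1). TZF5 rose by 2.68 in dcp5-1 and by 1.40 in Col-0, a difference of 1.28. DREB26 fell by 4.03 in dcp5-1, with a change of -5.48 in Col-0 and a difference of 1.45. Negative differences prevailed in JAZ repressors, with 0 positive and 6 negative of 12 (0 and 6), in clock genes with 3 and 7 of 21 (3 and 8), and in wax and cutin genes with 2 and 6 of 22 (2 and 11). PRR9 had 6.47, 5.98 and 7.22 FPKM at 60 min, against 1.09, 1.77 and 1.77 FPKM at 0 min in dcp5-1, and in Col-0 39.1, 37.0 and 38.9 FPKM at 60 min, against 4.49, 4.22 and 4.80 FPKM at 0 min. Its rise was thus smaller in the mutant by a difference of -1.26. The length trend was steeper in Col-0, with median changes of -0.42, 0.03 and 0.37 for short, middle and long transcripts. The counts of differences above take no account of it. With the length trend removed they were 8 and 0 for NAC factors and 7 and 2 for ERF factors. For xyloglucan enzymes they were then 7 and 1, and for JAZ repressors 0 and 6.

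Photosystem genes had 25 of 44 positive and 0 negative differences, Rubisco and Calvin cycle genes 15 of 15 and 0 (RBCS1A, whose value rests on zeros at 0 min, included), and ribosomal protein genes 22 of 28 and 0. With quantile normalization these counts became 12 and 2, 10 and 0, and 9 and 0. Neither set of counts takes account of the length trend. The 25 photosystem genes all fell in Col-0, and none of them was called higher in dcp5-1. LHCB3 had changes of -1.51 in dcp5-1 and -2.08 in Col-0, and CP12-1 of the Calvin cycle -1.54 and -2.71. RCA and PGK1 were instead called higher in dcp5-1 and were not called in Col-0. PRK and SBPASE were called higher in dcp5-1 (0.73 and 0.36) and lower in Col-0 (-0.26 and -0.11). RCA had 1890.4, 1968 and 1903 FPKM at 60 min, against 1599.7, 1959.5 and 1828 FPKM at 0 min in Col-0. There it did not change detectably (0.10), against a rise of 1.24 in dcp5-1. ABF factors had 0 positive and 3 negative of 8, and clade A PP2C phosphatases 3 and 1 of 8. These became 0 and 3, and 1 and 1, with quantile normalization. They became 0 and 4, and 3 and 1, with the length trend removed. The PP2C medians were 2.55 in dcp5-1 and 2.58 in Col-0.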

How the data were processed

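mRNA of whole seedlings was measured in 12 libraries, 3 in each of 4 groups. The authors deposited 1 table of FPKM values. Per the submitters' processing notes Bowtie, with no version, and the TAIR10 build were used, and the quantification program is not given in the sources used here. FPKM divides by length and by the library total, so a few abundant transcripts can shift all others. Values were analysed as log2(FPKM + 1) for loci that averaged 1 FPKM or more, which makes the changes of low genes look smaller than they are. limma 3.58.1 in R 4.3.3 fitted 4 group means over all 12 libraries with a variance trend (residual degrees of freedom 8, prior 3.29). Compared were 60 min against 0 min in dcp5-1, the same in Col-0, and their difference. Tests were two-sided, with Benjamini-Hochberg adjustment over 19876 loci and calls below 0.05. All 12 libraries entered each fit, and none was imputed. numpy 2.4.6, matplotlib 3.10.9 and pandas 2.3.3, under Python 3.11.15, made tables and figures. Symbols, transcript lengths and promoters came from a RefSeq TAIR10.1 annotation, in which 37792 locus identifiers matched.

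The fit was tested on simulated data with known changes before use. Alternatives were another pseudocount, 2 other filters, quantile and TMM scaling, removal of a length trend, no variance trend, a replicate block, only the dcp5-1 libraries, and leaving out each library. Same-numbered dcp5-1 libraries of the 2 times deviated together at r = 0.18, 0.08 and 0.11, so numbers were not taken as pairs.

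The comparison, the gene lists and the rules were chosen with earlier results of these data known. Genes named are DCP5, the 12 largest rises and 12 largest falls among nuclear loci with a symbol in the annotation, a call, no overlap between times and at least 5 FPKM in the higher group, up to 3 called members per direction of a list, and the largest differences between genotypes. Others were named for their role after their values were seen. The gene lists, drawn from general knowledge of Arabidopsis families, were described by counts and medians, with no test of their own.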

Additional observations from a re-analysis of the deposited data

Results flagged for a closer look

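The change between 60 min and 0 min was set against that in Col-0 by an interaction term in limma, and the genes below differed past the adjusted threshold. Each value is the change in dcp5-1 minus that in Col-0, in log2(FPKM + 1).

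In the tandem group on chromosome 4 the differences were 1.84 for AZI1, 1.95 for EARLI1, 3.50 for AT4G12490 and 3.34 for AT4G12495. They were 2.59 for OLEO2, 2.12 for MIR167d, 1.86 for AT5G50335 and 3.99 for AT3G08170. AT3G08170 is annotated as an antisense RNA, and without stranded counting its reads cannot be told apart from those of the other strand. Among transcription factors and RNA-binding proteins they were 1.54 for NAC019, 1.28 for NAC6, 0.94 for RD26, 1.45 for DREB26 and 1.28 for TZF5. AT2G27830 had 1.53 and BZS1 1.14.

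On the negative side the differences were -7.53 for AT5G11242, -1.82 for ATCG01300, -1.78 for AT5G01881, -1.76 for PROPEP3 and -1.41 for bHLH071. They were -1.41 for AT4G33467, -1.39 for AT2G22760, -1.31 for WOX4, -1.26 for PRR9 and -1.14 for TT5. AT5G01881 was listed at 0 in all 3 dcp5-1 libraries of 60 min, against 8.86, 7.81 and 6.30 FPKM at 0 min. AT5G11242 was listed at 0 in the same libraries, against 22.6, 37.7 and 18.2 FPKM at 0 min. Several of these genes already differed between genotypes at 0 min, as the values by library show, and the part of that starting level was not tested.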

How the results depend on the processing

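The counts of 6967 higher and 6284 lower loci in dcp5-1 stayed within 1.5 times under every alternative run, from 5437 and 5048 where only loci averaging 5 FPKM or more were tested to 7148 and 6667 with no filter on low values. Leaving out each library in turn gave 6410 to 7185 higher and 5832 to 6529 lower loci. For the difference between genotypes, leaving out a library gave 2407 to 3907 more positive and 1080 to 1854 more negative loci. Quantile normalization gave 2033 more positive loci and 2077 more negative, and was the only setting run that moved such a count past 1.5 times. The cause was not tested. With the replicate block 6871 loci were higher and 6235 lower in dcp5-1, and 3117 and 1443 differed between genotypes, so the block moved no count past 1.5 times. The named genes that turned in direction were RAB18 (AT5G66400), at 0.0028 with quantile normalization and 0.0773 with the length trend removed, and HVA22E, at 0.1266 with the length trend removed. Among counts of called list members 94 moved by over 1.5 times and 2174 did not. Loci at a few reads limit the smallest changes that could be called.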

Other observations

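A small set of loci was all but absent at one time and present at the other in dcp5-1, below 0.5 FPKM in all 3 libraries of the one and at 5 FPKM or more in all 3 of the other. Present after salt were 6 loci: HAI2, HSFA6B, RBCS1A, MYB121, RAP2.9 and AT4G18650. RBCS1A is listed at exactly 0 in all 6 libraries of 0 min, and a failed estimate there was not tested. MYB121, a MYB factor, had 8.60, 9.86 and 8.48 FPKM at 60 min, against 0.231, 0.279 and 0.282 FPKM at 0 min. RAP2.9, a DREB-family factor, had 8.38, 8.59 and 7.33 FPKM at 60 min, against 0.440, 0.424 and 0.214 FPKM at 0 min. The mirror set also held 6 loci, namely ZAT7, ACS11, AT5G01881, AT5G11242, AT2G02630 and AT1G33760. AT1G33760, a DREB-family factor, had 0.439, 0.218 and 0.481 FPKM at 60 min, against 27.6, 29.1 and 28.5 FPKM at 0 min.

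The danger peptide precursor gene PROPEP1 had 7.96, 9.30 and 6.99 FPKM at 60 min, against 32.7, 35.8 and 37.3 FPKM at 0 min, and PROPEP4 fell by 1.25. FLS2, the flagellin receptor, had 6.62, 6.46 and 7.00 FPKM at 60 min, against 1.77, 1.84 and 1.85 FPKM at 0 min, and CERK1, the chitin receptor kinase, rose by 0.78. Of 17 such immune genes 6 rose and 7 fell (median -0.20; 3 and 9 with the length trend removed). Of 20 U-box ubiquitin ligases 9 rose and 5 fell (median 0.14), but 8 and 9 did with the length trend removed. PUB23, which restrains immunity and drought tolerance, had 9.93, 10.7 and 11.1 FPKM at 60 min, against 47.7, 48.5 and 49.2 FPKM at 0 min. RBOHD, the oxidase of the reactive oxygen burst, had 3.38, 4.26 and 4.20 FPKM at 60 min, against 10.4, 11.2 and 11.0 FPKM at 0 min, while the catalase genes CAT1 and CAT3 rose by 0.83 and 0.68. The 25 redox enzymes as a whole had 7 higher and 12 lower, which turned to 12 and 7 with quantile normalization and to 10 and 6 with the length trend removed. Of 41 glutathione transferases 9 rose and 24 fell (median -0.35; 12 and 14 with the length trend removed), led by GSTU8 with 23.8, 24.5 and 25.1 FPKM at 60 min, against 90.5, 97.6 and 102 FPKM at 0 min.

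Of 30 heat shock proteins and chaperones 11 rose and 13 fell (median -0.14). The cytosolic chaperone HSP70 (AT3G12580) fell by 1.21 and BIP2, of the endoplasmic reticulum, rose by 0.87. Cell division genes had 6 of 33 higher and 10 lower (median -0.04). ICK1, a cyclin-dependent kinase inhibitor, had 8.25, 9.19 and 9.36 FPKM at 60 min, against 30.6, 33.7 and 32.3 FPKM at 0 min, and the cyclin CYCD3;2 had 23.0, 22.3 and 21.5 FPKM at 60 min, against 64.6, 63.7 and 66.9 FPKM at 0 min. Stomatal lineage genes had 5 of 13 higher and 3 lower (median 0.12; 5 and 5 with the length trend removed). EPFL9, the peptide stomagen that promotes stomata, had 5.82, 7.02 and 6.41 FPKM at 60 min, against 33.1, 40.1 and 34.7 FPKM at 0 min, and the receptor kinase ER rose by 0.98. Autophagy genes had 8 of 25 higher and 8 lower, which became 11 and 5 with the length trend removed. Of 13 genes of chlorophyll breakdown and senescence 6 rose and 4 fell (median 0.08). PPH, which strips the tail from pheophytin, had 26.9, 25.5 and 25.5 FPKM at 60 min, against 11.7, 12.3 and 12.1 FPKM at 0 min. Flavonoid genes had 2 of 13 higher and 5 lower (median -0.23), and CHS, chalcone synthase, had 65.0, 70.9 and 74.2 FPKM at 60 min, against 111, 113 and 116 FPKM at 0 min.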
